A study of Mus musculus with 9 samples.

Results

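The interferon-stimulated genes are transcribed in cells that have received an interferon signal, and 46 of them, spanning the main branches of the response, were followed across cultured spermatogonial stem cells, putative female germ cells and oocytes of the mouse. Expression had been measured on 9 single-colour Illumina arrays, in 3 groups of 3. On the array, 94 probes carried the symbols of 45 of these genes, and Ifi44 had no named probe in the annotation used. Kept were the probes detected on 3 or more of the 9 arrays, with a detection p, which sets the signal against that array's negative controls, below 0.01. This left 66 probes of 38 genes, among 19934 kept probes of 11077 genes in all. No probe of the other 8 genes was kept: Ifit1, Oas1a, Oas3, Ifih1, Iigp1 and Xaf1 were detected on 0 arrays, and Trim30a on 1, an oocyte array.

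All 9 samples are labelled C57BL/6, and no genetic change, drug or interferon treatment is given for any of them. The first group holds spermatogonial stem cells grown in culture (SSC). The second holds putative female germ cells from a magnetic sort (PFGC), which the series title frames as cells that SSC give rise to. The third holds oocytes, likewise from a magnetic sort. Age and sex of the animals, tissue, sorting antibody and cell number are not in the labels. Since only the SSC are labelled as cultured and only the other groups as sorted, cell type and handling cannot be told apart in any comparison with SSC. The labels number the replicates but do not say whether they came from separate cultures or animals, so the p-values reflect only how far these samples differ, and that difference may be technical.

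Interferons bind receptors at the cell surface, and the receptor-bound kinases of the JAK family then phosphorylate STAT proteins. Type I and type III interferons mainly work through a complex that holds STAT2 and IRF9 and binds the interferon-stimulated response element in promoters, whereas interferon gamma mainly works through the gamma-activated sequence. The induced genes encode proteins that sense or degrade viral RNA, block entry of viruses, tag proteins with ISG15, attract leukocytes or feed back on the pathway itself. Some members, Ifitm1 and Ifitm3 among them, are also known from early germ cells of the mouse.

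On each array, 38.9 to 41.8% of 45281 probes were detected. Over the kept probes, arrays of a group correlated at 0.972 to 0.994, PFGC with oocytes at 0.958 to 0.974, SSC with PFGC at 0.871 to 0.901, and SSC with oocytes at 0.823 to 0.845. Oocyte markers were higher than in SSC for 10 of 10 kept genes in PFGC and in oocytes alike (23.7% and 28.1% of all genes). Markers of undifferentiated spermatogonia were lower for 10 of 10 in both (26.8% and 32.4%). Bmp15, Zp2, Zp3, Figla, Nlrp5 and Npm2 were detected on no SSC array, so these oocyte markers were kept only through the groups where they are high. Lhx1 was detected on no PFGC or oocyte array, and was kept only through SSC. Gfra1 was detected on no oocyte array. Summed linear levels of the oocyte markers ran from 412.62 to 463.57 on SSC arrays, against 20662 to 24026 with PFGC and 25063 to 25558 with oocytes; those of the spermatogonial markers ran from 3608.5 to 3893.1, against 833.34 to 1043.5 and 520.51 to 585.18. Of 5 markers of germ cells of both sexes, 4 had a kept probe, with 2 higher and 2 lower than in SSC in both comparisons, and Mael was detected on no array; their sums ran from 3463.1 to 5062.6, 6084.4 to 7152.4 and 5004.9 to 5449.2 in the same order of groups. Levels below are log2 normalised intensities, and they serve to compare groups by one probe, not to rank genes.

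Most interferon-stimulated genes were higher in PFGC and in oocytes than in SSC, and a large part of them was somewhat lower in PFGC than in oocytes. In PFGC against SSC, 34 of 38 genes were called higher (limma, adjusted p under 0.05), against 23.7% of all 11077 genes, and 1 was called lower, against 26.8%. At least 2-fold higher were 31 genes, against 11.2% of all genes. In oocytes against SSC, 35 of 38 were called higher (28.1% of all genes) and 1 lower (32.4%), with 33 at least 2-fold higher (14.6%). The median log2 fold change over the 38 genes was 2.01 in PFGC and 2.64 in oocytes, where the medians over all genes were -0.06 and -0.07. With genes that a group did not detect set at their bounds, as defined for Irf7 further on, the medians were 1.93 and 2.38, and the genes at least 2-fold higher were 31 and 32. These comparisons share the SSC arrays.

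The mean over the 38 genes was 7.05, 7.12 and 7.12 on the SSC arrays, 9.60, 9.37 and 9.48 on the PFGC arrays, and 9.95, 9.96 and 9.97 on the oocyte arrays. The groups did not overlap, and PFGC lay closer to the oocytes than to SSC. Group means stood in the order SSC, PFGC, oocytes in 33 of 38 genes, against 30.5% of all genes.

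A gene undetected in SSC could enter the set only through PFGC or oocytes, where it is high. Of the 38 genes, 7 were detected on no SSC array, 4 on 1 or 2, and 27 on all 3, and these 27 were detected on all 9 arrays. Among the 27, 24 were higher and 1 lower in PFGC than in SSC, against 21.5% and 27.9% of the 8639 genes detected on all 9 arrays. In oocytes against SSC the counts were also 24 and 1, against 26.0% and 33.9%.

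**Figure D1:**
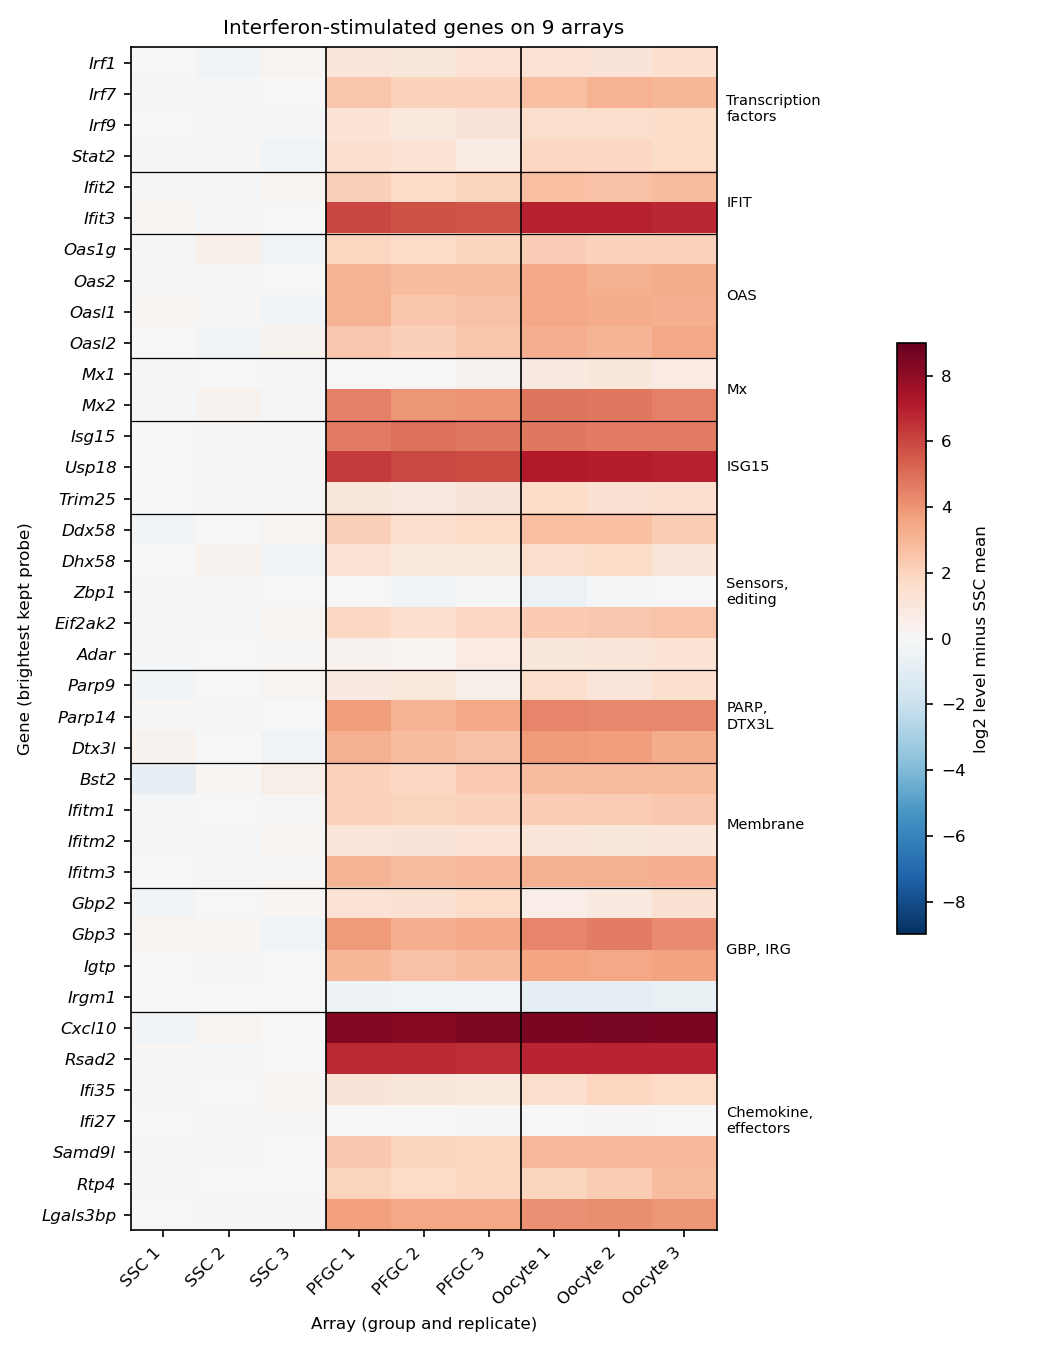
Log2 level of the brightest kept probe of each of 38 interferon-stimulated genes (rows, by role) on the 9 arrays (columns), minus the mean of that probe's 3 SSC arrays (colour scale). PFGC and oocyte columns are red in nearly every row, darkest for Cxcl10, Usp18, Ifit3 and Rsad2; Ifi27 and Zbp1 stay near the SSC mean and Irgm1 is blue.

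RefSeq promoters (assembly GRCm38.p6, 250 bases before to 50 after the annotated start) were found for 35 of the 46 genes, 28 of them with a kept probe; Mx1, Mx2, Iigp1, Dhx58, Parp14, Oas2, Parp9, Ifi27, Zbp1, Usp18 and Rtp4 had no entry. The core letters of the interferon-stimulated response element, which are GAAA, any 2 bases and GAAA on either strand, with overlapping matches counted separately, occurred in the promoters of 15 of these 28 genes (53.6%), and in 3.99% of the 27025 genes in the table. The letters of the gamma-activated sequence, TTCNNNGAA, which read the same on both strands and were counted once, occurred in 8 of the 28 genes (28.6%) and in 9.55% of all genes. A match is a run of letters in this window, not a shown binding site. Of the 4 genes with the highest fold changes in PFGC against SSC, the promoters of Cxcl10, Rsad2 and Ifit3 are shown. After them come Isg15, the GTPase genes Gbp3 and Igtp, and Irf1, as chosen examples that do not stand for their branches. Only a promoter with a match was printed, and another annotated promoter of Gbp3 and of Irf1 held neither set of letters. Among genes with a kept probe, Dtx3l, Ifitm1, Irf7, Irf9, Lgals3bp, Oasl1, Oasl2, Samd9l and Trim25 held neither in any annotated promoter. The 250 bases before the start are printed 5′ to 3′ on the gene's strand, with matches to either set of letters in capitals.
Cxcl10: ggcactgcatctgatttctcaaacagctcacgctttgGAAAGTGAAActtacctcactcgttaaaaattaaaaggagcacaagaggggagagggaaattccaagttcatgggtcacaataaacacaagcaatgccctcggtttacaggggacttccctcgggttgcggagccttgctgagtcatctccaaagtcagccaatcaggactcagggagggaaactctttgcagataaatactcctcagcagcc
Rsad2: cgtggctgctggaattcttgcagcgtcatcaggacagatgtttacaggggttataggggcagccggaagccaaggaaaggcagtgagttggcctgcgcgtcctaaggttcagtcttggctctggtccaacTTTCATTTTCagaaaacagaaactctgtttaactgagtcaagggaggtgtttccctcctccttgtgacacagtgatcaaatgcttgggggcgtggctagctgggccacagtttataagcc
Ifit3: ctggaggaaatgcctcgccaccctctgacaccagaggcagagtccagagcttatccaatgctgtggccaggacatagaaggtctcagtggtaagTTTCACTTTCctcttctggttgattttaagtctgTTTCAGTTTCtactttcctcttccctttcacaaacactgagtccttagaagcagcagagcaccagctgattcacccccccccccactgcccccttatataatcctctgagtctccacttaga
Isg15: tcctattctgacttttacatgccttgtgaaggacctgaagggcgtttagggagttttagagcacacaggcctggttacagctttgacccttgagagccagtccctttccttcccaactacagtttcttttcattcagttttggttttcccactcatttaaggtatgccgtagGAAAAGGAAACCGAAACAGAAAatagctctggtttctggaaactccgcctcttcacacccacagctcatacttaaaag
Gbp3: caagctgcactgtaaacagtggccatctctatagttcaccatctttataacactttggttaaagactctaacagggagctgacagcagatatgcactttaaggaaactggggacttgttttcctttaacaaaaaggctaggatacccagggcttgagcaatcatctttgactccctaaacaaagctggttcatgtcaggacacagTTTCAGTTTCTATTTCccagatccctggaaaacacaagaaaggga
Igtp: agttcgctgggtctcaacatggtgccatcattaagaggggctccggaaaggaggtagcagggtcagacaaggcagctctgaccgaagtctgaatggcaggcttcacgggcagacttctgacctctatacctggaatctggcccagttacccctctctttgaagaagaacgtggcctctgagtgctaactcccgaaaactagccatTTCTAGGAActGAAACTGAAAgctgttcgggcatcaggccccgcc
Irf1: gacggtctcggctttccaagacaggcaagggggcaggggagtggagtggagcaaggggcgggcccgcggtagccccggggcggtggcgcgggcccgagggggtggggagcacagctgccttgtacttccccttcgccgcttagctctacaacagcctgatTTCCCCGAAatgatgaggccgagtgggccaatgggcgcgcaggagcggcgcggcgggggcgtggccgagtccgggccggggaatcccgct

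These stretches lie at chr5:92348890-92349139 on the minus strand (Cxcl10), chr12:26456453-26456702 on the minus strand (Rsad2), chr19:34583279-34583528 on the plus strand (Ifit3), chr4:156200819-156201068 on the minus strand (Isg15), chr3:142559794-142560043 on the plus strand (Gbp3), chr11:58199306-58199555 on the plus strand (Igtp) and chr11:53769764-53770013 on the plus strand (Irf1). With the base before the start counted as -1, the response element core began at -213 in Cxcl10, -120 in Rsad2, -156 and -122 in Ifit3, and -45 and -39 in Gbp3. In Isg15, 3 overlapping matches began at -78, -72 and -66. Igtp held both kinds of letters, the gamma-activated sequence at -45 and the response element core at -34. Irf1 held a gamma-activated sequence at -90 and no response element core in the printed stretch.

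Among the transcription factors of the pathway, all 4 genes were called higher in PFGC and in oocytes than in SSC, against 23.7% and 28.1% of all genes. Of these, Irf7 was kept only through PFGC or oocytes, where it is high. Irf7, the factor that amplifies type I interferon production, read 4.70, 4.44 and 4.54 in SSC, where no array detected it, 7.07, 6.60 and 6.63 in PFGC, and 7.27, 7.71 and 7.58 in oocytes. It was at least 2.82-fold higher in PFGC and at least 4.75-fold higher in oocytes than in SSC, a bound set by the lowest signal of any detected probe. Stat2, a subunit of the type I complex, read 6.39, 6.36 and 6.04 in SSC, 7.72, 7.52 and 6.96 in PFGC, and 8.14, 8.15 and 7.92 in oocytes. The 3 groups did not overlap for either gene. Irf9, its DNA-binding partner, was 2.15-fold higher in PFGC (log2 fold change 1.11, SE 0.13) and 3.07-fold higher in oocytes. Irf1, a factor induced by interferon gamma and by other signals, was 2.20-fold higher in PFGC and 2.46-fold higher in oocytes, from a mean of 11.54 ± 0.23 (SD, n = 3) in SSC.

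The IFIT proteins bind foreign RNA and block its translation. Ifit3 read 5.62, 5.35 and 5.44 in SSC, 11.50, 11.19 and 11.13 in PFGC, and 12.38, 12.37 and 12.29 in oocytes. Every PFGC array lay far above the SSC arrays and below every oocyte array, for a 55.8-fold difference of PFGC from SSC (log2 fold change 5.80, SE 0.13) and a 117-fold difference of oocytes from SSC. Ifit2 was 3.90-fold and 6.65-fold higher than in SSC. Its neighbour in the family, Ifit1, was detected on no array.

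The oligoadenylate synthetases make the short RNA-like messenger that activates RNase L, and their relatives OASL1 and OASL2 are induced with them. All 4 kept genes, all on chromosome 5, were called higher than in SSC in PFGC and in oocytes, against 23.7% and 28.1% of all genes. Of these, Oas2 and Oasl1 were kept only through PFGC or oocytes, where they are high. Oas2 read 4.47, 4.77 and 4.67 in SSC, where it was not detected, 7.66, 7.44 and 7.51 in PFGC, and 8.06, 7.83 and 7.96 in oocytes. It was at least 4.82-fold higher in PFGC and at least 6.41-fold higher in oocytes. Oasl1, also undetected in SSC, was at least 4.73-fold and at least 7.14-fold higher, and Oasl2 was 5.19-fold and 9.68-fold higher. Oas1g, detected on 2 SSC arrays, was 3.70-fold and 4.35-fold higher, while Oas1a and Oas3 had no kept probe. Probe specificity within such families was not checked, since probe sequences were not used here.

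The related paralogues Oas1c, Oas1d and Oas1e, known from the mouse ovary, were called higher too. Oas1d read 4.33, 4.40 and 4.49 in SSC, 11.87, 11.83 and 11.98 in PFGC, and 11.94, 11.98 and 12.03 in oocytes. No SSC array detected it, and it was at least 98.5-fold higher in PFGC and at least 105-fold higher in oocytes. Of this list of 6, the 4 genes with a kept probe were called higher in both comparisons, against 23.7% and 28.1% of all genes. No SSC array detected any of these 4, so they were kept only through PFGC or oocytes, where they are high. Oas1e was at least 9.11-fold, Oas1c at least 8.13-fold and Oas1b at least 1.26-fold higher in PFGC than in SSC.

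The Mx proteins are dynamin-like GTPases that trap viral components, and laboratory strains such as C57BL/6 carry defective alleles of Mx1. The 2 genes, both on chromosome 16, differed from each other. Mx2 read 5.05, 5.44 and 4.94 in SSC, 9.68, 9.09 and 9.20 in PFGC, and 9.96, 9.87 and 9.70 in oocytes, which was 18.2-fold higher in PFGC and 26.0-fold higher in oocytes. Mx1 was detected on no SSC or PFGC array and on the 3 oocyte arrays, with levels of 4.62, 4.57 and 4.40 in SSC, 4.48, 4.53 and 4.86 in PFGC, and 5.35, 5.53 and 5.28 in oocytes. Its difference in oocytes from SSC was called (limma, adjusted p = 0.000435) but amounted to at least 1.08-fold.

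ISG15 is a ubiquitin-like tag, USP18 removes it and damps the type I receptor, and TRIM25 is a ligase that activates RIG-I. Isg15 read 7.93, 8.01 and 7.71 in SSC, 12.57, 12.83 and 12.61 in PFGC, and 12.62, 12.52 and 12.59 in oocytes. PFGC and oocyte arrays overlapped, 27.6-fold and 26.0-fold above SSC. Usp18 read 5.60, 5.42 and 5.69 in SSC, 11.88, 11.50 and 11.42 in PFGC, and 12.71, 12.62 and 12.52 in oocytes. Here the 3 groups were apart, with PFGC 65.4-fold and oocytes 132-fold above SSC. Trim25 was called higher as well, by 1.97-fold in PFGC and 2.85-fold in oocytes.

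The sensors and editors of nucleic acids were a mixed branch. Ddx58, which encodes the RNA sensor RIG-I, read 4.65, 4.82 and 5.14 in SSC, where it was not detected, 7.0, 6.38 and 6.69 in PFGC, and 7.56, 7.57 and 7.14 in oocytes, at least 2.67-fold and at least 4.45-fold higher. Eif2ak2, the kinase PKR that halts translation, was 3.37-fold and 5.38-fold higher, and Dhx58, the RIG-I regulator LGP2, 2.08-fold and 2.71-fold higher. Ifih1, the sensor MDA5, had no detected probe. Zbp1, a sensor of Z-form nucleic acid, read 6.43, 6.64 and 6.61 in SSC, 6.50, 6.33 and 6.42 in PFGC, and 6.01, 6.40 and 6.60 in oocytes, and the groups overlapped (log2 fold changes -0.15, SE 0.16, and -0.22, SE 0.16).

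Adar, an RNA-editing enzyme that marks self RNA, was near the threshold. It read 7.41, 7.51 and 7.59 in SSC, 7.79, 7.72 and 8.24 in PFGC, and 8.55, 8.57 and 8.76 in oocytes. PFGC were 1.33-fold above SSC (limma, adjusted p = 0.0480) and oocytes 2.19-fold above SSC (adjusted p = 0.000123). The call in PFGC ended when any array other than PFGC replicate 2 was left out, with adjusted p from 0.0521 without oocyte replicate 3 to 0.159 without PFGC replicate 3. All 5 kept Adar probes, however, were called higher in both comparisons with SSC.

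PARP9, PARP14 and DTX3L are ADP-ribosylation and ubiquitin ligase proteins, and their genes lie on chromosome 16. Parp14 read 6.36, 6.08 and 6.31 in SSC, 10.01, 9.40 and 9.64 in PFGC, and 10.68, 10.58 and 10.55 in oocytes, 10.8-fold and 20.4-fold higher than in SSC. Dtx3l was 7.58-fold and 12.4-fold higher. Parp9, undetected in SSC, was at least 1.26-fold and at least 1.85-fold higher.

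The membrane restriction factors block viral entry or release. Called higher than in SSC were 4 of 4 in PFGC and in oocytes, against 23.7% and 28.1% of all genes. Ifitm3, which also marks early germ cells of the mouse, read 9.97, 9.90 and 10.13 in SSC, 13.04, 12.79 and 12.89 in PFGC, and 13.18, 13.23 and 13.24 in oocytes. PFGC were 7.50-fold and oocytes 9.29-fold above SSC, with no overlap between any of the groups. Ifitm1 was 4.16-fold and 5.04-fold higher, and Ifitm2 2.23-fold and 2.09-fold higher. Bst2, the tether that holds virions on the cell, read 7.20, 8.14 and 8.48 in SSC, the widest SSC spread among the 38 genes, and was 4.27-fold and 7.05-fold higher.

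The guanylate-binding proteins and immunity-related GTPases attack vacuoles that hold pathogens and are known as targets of interferon gamma. Gbp3 read 6.61, 6.62 and 6.18 in SSC, 10.32, 9.71 and 9.87 in PFGC, and 10.85, 11.08 and 10.75 in oocytes, 11.3-fold and 21.4-fold above SSC. Igtp was 6.87-fold and 11.6-fold higher, and Gbp2 2.75-fold and 1.89-fold higher. The GTPase gene Iigp1 was detected on no array by any of its 4 probes. Irgm1 was the 1 gene called lower, by its brightest probe, whose log2 fold change was -0.38 in PFGC and -0.80 in oocytes; its other probes are described further on.

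The chemokine and effector genes ranged from a level gene, Ifi27, to the highest fold change of the 38 genes, that of Cxcl10. Cxcl10, a chemokine that attracts T cells and natural killer cells, read 5.09, 5.58 and 5.33 in SSC, 13.64, 13.53 and 13.75 in PFGC, and 13.80, 13.86 and 13.83 in oocytes. Against SSC it was 316-fold higher in PFGC (log2 fold change 8.31, SE 0.14) and 361-fold higher in oocytes. Rsad2, whose product viperin makes an inhibitor of viral RNA synthesis, read 5.94, 5.71 and 5.92 in SSC, 12.58, 12.57 and 12.50 in PFGC, and 12.69, 12.73 and 12.69 in oocytes. Its differences from SSC were 104-fold and 115-fold, and for both genes PFGC lay just below the oocytes with no overlap.

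Lgals3bp, a secreted glycoprotein, was 11.8-fold and 16.9-fold higher than in SSC, and Samd9l, an antiviral factor, 4.37-fold and 7.57-fold higher. Ifi35 was 2.08-fold and 3.41-fold higher. Rtp4, a chaperone of receptors that is undetected in SSC, was at least 2.10-fold and at least 2.94-fold higher. Ifi27 was level across the arrays, with means of 12.42 ± 0.09 in SSC, 12.44 ± 0.08 in PFGC and 12.45 ± 0.05 in oocytes (SD, n = 3). The standard errors of its log2 fold changes of 0.02 and 0.03 were 0.11 each.

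**Figure D2:**
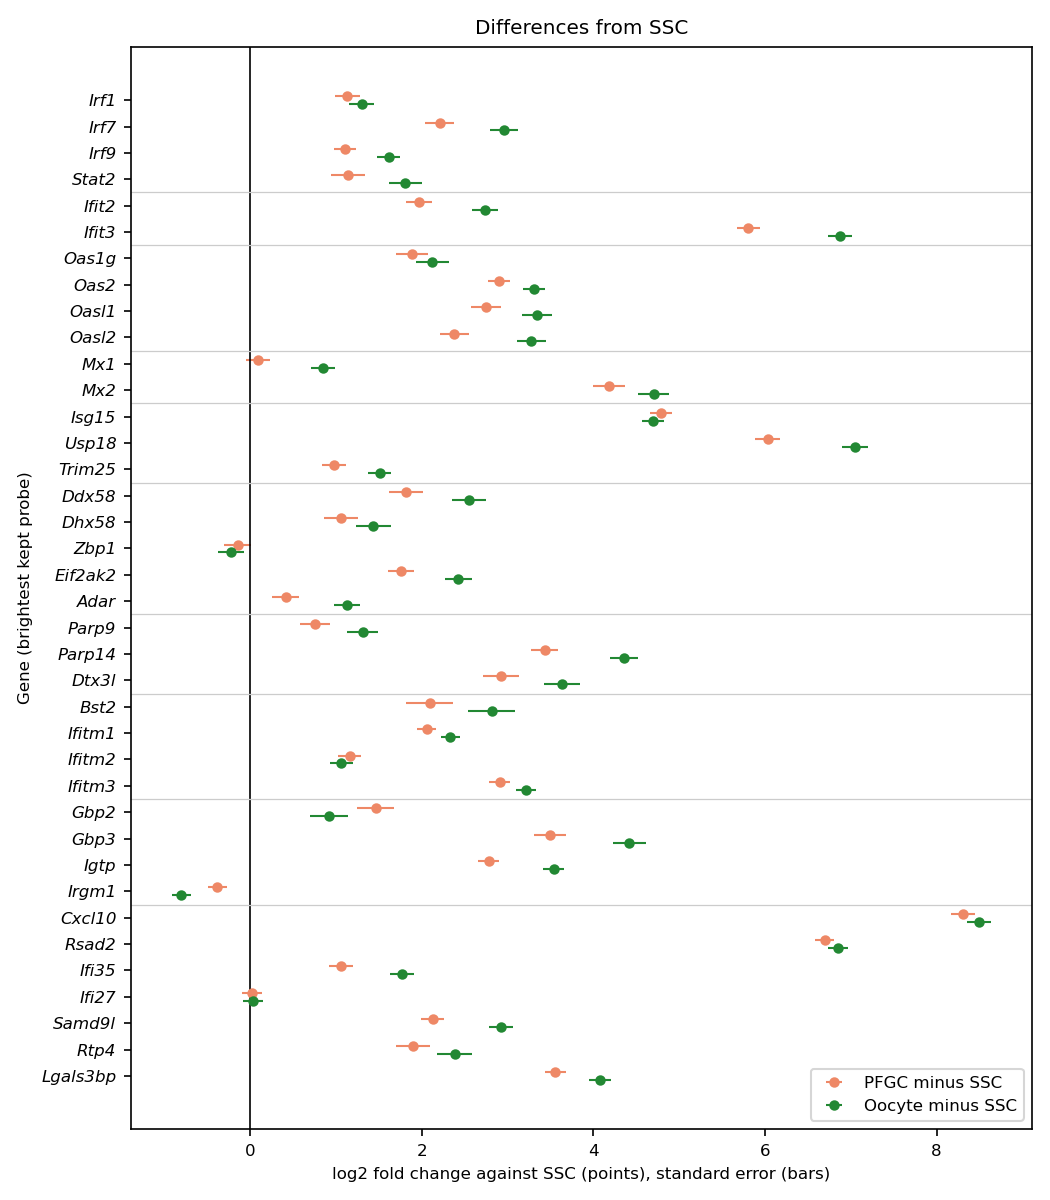
Log2 fold change against SSC (points) with its standard error (bars) for 38 interferon-stimulated genes, in PFGC (orange) and oocytes (green), ordered by role. Most points lie to the right of 0, from about 1 for Irf1 and Trim25 to 8.31 and 8.49 for Cxcl10, and the green point lies to the right of the orange one in 33 of 38 genes; Isg15, Ifitm2 and Gbp2 are among the exceptions.

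The median log2 fold changes from SSC by branch, PFGC before oocytes, were 1.06 and 1.44 over the 5 sensors and editors, 1.14 and 1.71 over the 4 transcription factors, 2.08 and 2.58 over the 4 membrane factors, and 2.12 and 2.23 over the 4 GTPases. They were 2.13 and 2.92 over the 7 effectors, 2.92 and 3.63 over the 3 PARP and DTX3L genes, 3.88 and 4.80 over the 2 IFIT genes, and 4.79 and 4.70 over the 3 genes of the ISG15 system, and setting undetected genes at their bounds moved none of these. The medians over the 4 oligoadenylate synthetases were 2.56 and 3.29 as fitted, and 2.26 and 2.76 with Oas2 and Oasl1 at their bounds. Over the Mx pair they were 2.13 and 2.78 as fitted, and 2.09 and 2.41 with Mx1 at its bound in oocytes and at 0 in PFGC, where neither group detected it. All these medians use the brightest probe of each gene. That over the PARP and DTX3L genes is the value of Dtx3l, whose other probe stayed near SSC (-0.03 and -0.16). The GTPase median includes the brightest Irgm1 probe, which ran opposite to another Irgm1 probe (3.65 and 4.47). Branches were small, and differences between them were not tested.

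Between PFGC and oocytes the differences were much smaller, and they mostly ran one way. PFGC were called lower for 17 of 38 genes, against 3.30% of all genes, and higher for 1, against 6.80%. At least 2-fold lower were Ifit3 (2.10-fold, limma, adjusted p = 0.00107) and Usp18 (2.03-fold, adjusted p = 0.00281), against 0.316% of all genes. The median log2 fold change was -0.54 over the 38 genes (-0.53 with Mx1 at its bound) and -0.01 over all genes. All 3 PFGC arrays lay below all 3 oocyte arrays in 29 of 38 genes, against 17.5% of all genes. Among the 27 genes detected on all 9 arrays, 14 were lower and 1 higher, against 3.06% and 6.41%.

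The branches differed in how many genes passed this test. Called lower in PFGC were both IFIT genes (Ifit2 1.70-fold), Irf7 and Irf9 of the 4 transcription factors (1.68-fold and 1.42-fold), Usp18 and Trim25 of the ISG15 system (Trim25 1.45-fold), and Ddx58, Eif2ak2 and Adar of the 5 sensors and editors (1.66-fold, 1.60-fold and 1.64-fold). So were Oasl2 of the 4 oligoadenylate synthetases (1.86-fold), Mx1 of the Mx pair (at least 1.10-fold), Parp14 of its 3 (1.89-fold), and Gbp3 and Igtp of the 4 GTPases (1.90-fold and 1.69-fold). The last were Ifi35, Samd9l and Lgals3bp of the 7 effectors (1.64-fold, 1.73-fold and 1.43-fold). None of the 4 membrane factors was called by limma at an adjusted p under 0.05, with log2 fold changes from -0.72 for Bst2 to 0.10 for Ifitm2, although 3 of them were lower at an unadjusted p under 0.05. The difference between branches was not tested.

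Of the 4 genes furthest above SSC in PFGC, Ifit3 and Usp18 had the lowest fold changes of PFGC from oocytes among the 38, and Cxcl10 and Rsad2 were not called. The log2 fold change of PFGC from oocytes was -0.19 (SE 0.14) for Cxcl10, -0.16 (SE 0.11) for Rsad2 and 0.09 (SE 0.13), likewise not called, for Isg15. Irf1 (-0.17), Ifitm1 (-0.28), Ifitm3 (-0.31), Oas1g (-0.24), Oas2 (-0.41), Dhx58 (-0.38), Rtp4 (-0.48), Mx2 (-0.52) and Parp9 (-0.55) were not called either. Stat2 (-0.67), Oasl1 (-0.59) and Dtx3l (-0.71) missed the threshold without the replicate number as a block and were called lower with it, at adjusted p = 0.0126, 0.0236 and 0.00493. With the block Gbp2 became a second gene called higher in PFGC (log2 fold change 0.54, adjusted p = 0.0250), which raised the count of higher calls from 1 to 2.

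Many calls of this comparison depended on single arrays, among the 38 genes and among all genes. The count of 17 lower calls dropped to 5 without PFGC replicate 2, to 9 without oocyte replicate 1 and to 8 without oocyte replicate 2. Over all 11077 genes the lower calls dropped from 366 to 79, 101 and 109 in the same order. The median log2 fold change over the 38 genes went from -0.54 to -0.47, -0.54 and -0.60. PFGC replicate 2 had the lowest mean over the 38 genes of the 3 PFGC arrays, at 9.37. Without any 1 array, Ifit3, Usp18, Parp14, Igtp and Samd9l kept their calls, and the other 12 genes lost theirs in at least 1 of the 9 cases, with adjusted p up to 0.167. Bst2, not called with all arrays, was called lower without SSC replicate 1 (adjusted p = 0.0266), the array with the lowest Bst2 level. Calls were also gained for Oasl1 and Dtx3l without SSC replicate 3, for Stat2, Oasl1, Mx2 and Dtx3l without PFGC replicate 1, and for Dtx3l and, as higher, Gbp2 without oocyte replicate 3, with adjusted p from 0.0257 to 0.0497.

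**Figure D3:**
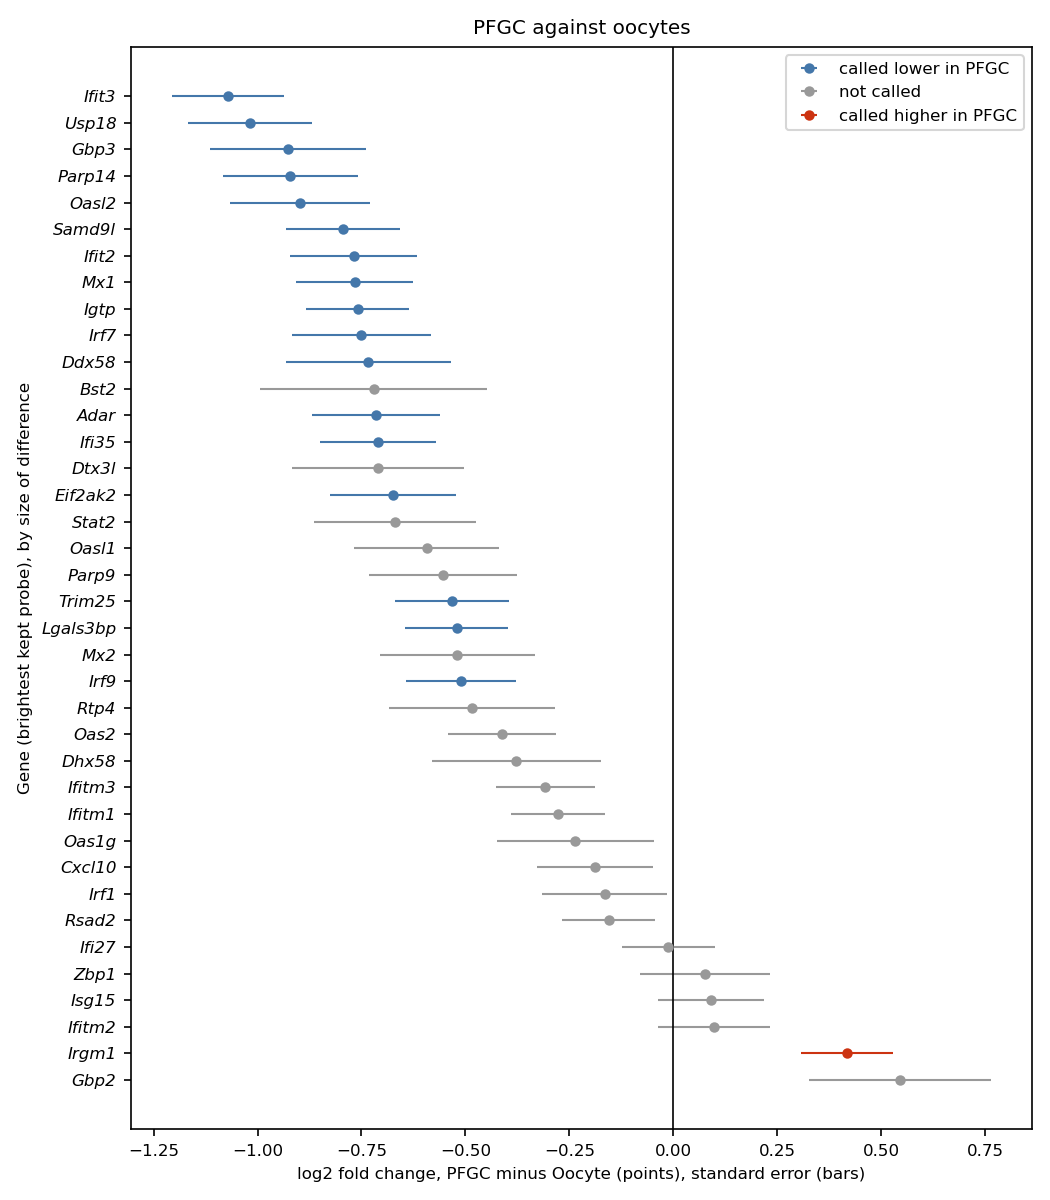
Log2 fold change of PFGC from oocytes (points) with its standard error (bars) for 38 interferon-stimulated genes, sorted by size. The 17 genes called lower in PFGC (blue) lie between -1.07 for Ifit3 and -0.51 for Irf9, and Irgm1 (red, 0.42) is the 1 gene called higher.

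More than 1 kept probe was available for 18 of the 38 genes. Over the 66 kept probes, 58 were called higher and 1 lower in PFGC than in SSC, against 21.9% and 26.2% of 19934 probes, and 61 higher and 1 lower in oocytes than in SSC, against 27.3% and 30.3%. In PFGC against oocytes, 29 probes were lower and 1 higher, against 3.63% and 5.54%. The probes of a gene could differ in direction or size. Irgm1, a regulator of the immunity-related GTPases, was the clearest case. Its brightest probe read 13.80, 13.81 and 13.73 in SSC, 13.34, 13.40 and 13.44 in PFGC, and 12.91, 12.92 and 13.10 in oocytes.

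The second Irgm1 probe ran the other way, from a mean of 6.06 in SSC to 9.72 in PFGC and 10.54 in oocytes, log2 fold changes of 3.65 and 4.47. The third probe had log2 fold changes of 0.49, not called, and 1.35. Both of these probes were called lower in PFGC than in oocytes, the brightest one higher. The call of the brightest probe as lower in PFGC than in SSC ended without PFGC replicate 1 (adjusted p = 0.0518), and its call as higher in PFGC than in oocytes ended without SSC replicate 1 and without any 1 PFGC or oocyte array, with adjusted p from 0.0528 to 0.151. Which Irgm1 transcripts the probes match was not analysed here.

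Gbp2 also gave opposite directions between PFGC and oocytes, with log2 fold changes of 0.54 for the brightest probe, not called, and -1.44 for the second, called lower. Both Gbp2 probes were called higher than in SSC in both comparisons. The second Dtx3l probe stayed near its SSC level (-0.03 in PFGC and -0.16 in oocytes), against 2.92 and 3.63 for the brightest. The dimmer Cxcl10 probe was called higher than in SSC, by 2.19 and 3.40 on the log2 scale, and was called lower in PFGC than in oocytes (-1.21), unlike the brightest. Both Gbp3 probes, by contrast, gave nearly one value, 3.43 and 3.49 in PFGC and 4.41 and 4.42 in oocytes.

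**Figure D4:**
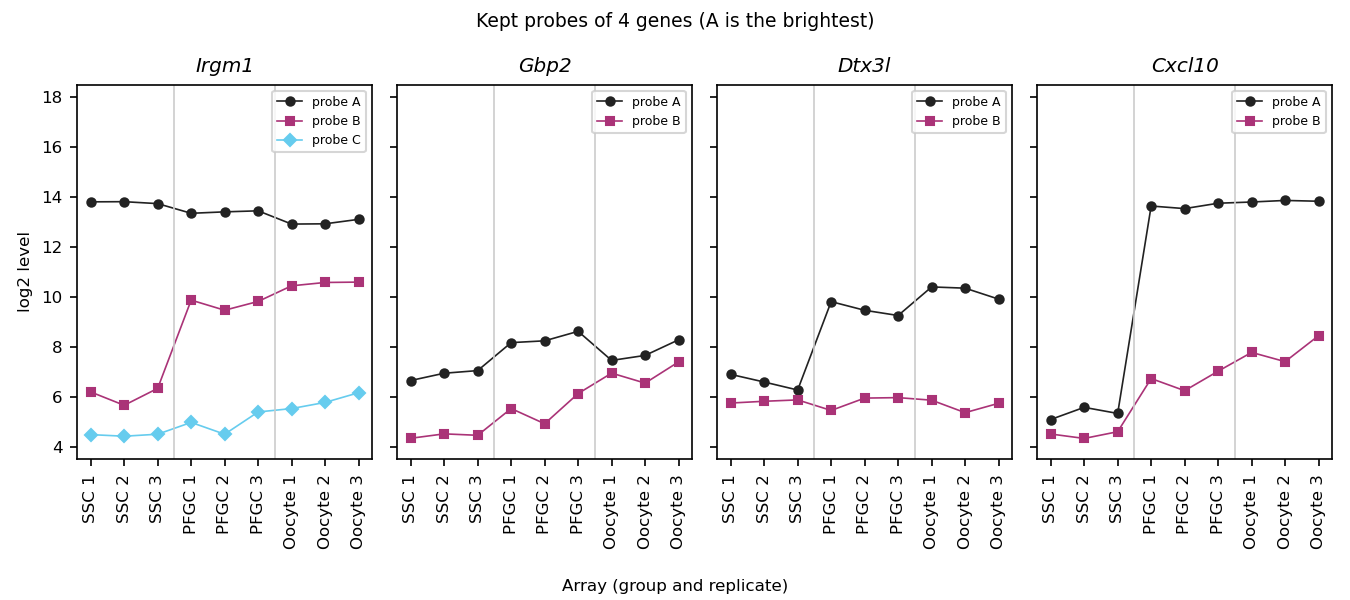
Log2 level of each kept probe (lines, A the brightest) of Irgm1, Gbp2, Dtx3l and Cxcl10 on the 9 arrays. Irgm1 probe A falls slightly from SSC to oocytes while probe B climbs from about 6 to above 10; Dtx3l probe B is flat while probe A climbs; and the Gbp2 probes differ in their order of PFGC and oocytes.

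Upstream of these genes, most of the interferon genes themselves had no kept probe. Of 18 ligand genes with a named probe, 4 had a kept probe, and Ifng, Ifne, Ifnk and Ifnl3 were detected on no array. Ifnb1, the interferon that many cell types release first, read 4.28, 4.34 and 4.63 in SSC, 5.44, 4.83 and 5.15 in PFGC, and 5.61, 6.04 and 5.63 in oocytes. It was detected on 0 SSC arrays, 1 PFGC array and 3 oocyte arrays, and was called higher in both comparisons with SSC, by at least 1.40-fold in oocytes. Ifnab was called higher in oocytes than in SSC (1.44-fold), and neither Ifna1 nor Ifna6 was called.

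The receptors went in both directions. Ifnar2, a subunit of the type I receptor, was 1.60-fold higher in PFGC and 2.47-fold higher in oocytes, with levels of 6.38, 6.26 and 6.27 in SSC, 7.19, 6.77 and 6.98 in PFGC, and 7.76, 7.56 and 7.51 in oocytes. Its partner Ifnar1 was detected on no array. Ifngr2, a subunit of the interferon gamma receptor, was 2.02-fold lower in PFGC and 3.38-fold lower in oocytes, with levels of 10.38, 10.72 and 10.19 in SSC, 9.46, 9.50 and 9.27 in PFGC, and 8.72, 8.60 and 8.69 in oocytes. The 3 groups were apart for both genes, in opposite orders.

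Ifngr1, the other gamma receptor subunit, was not called (log2 fold changes -0.16 and -0.23). Of the type III receptor, Ifnlr1 was lower in PFGC (2.15-fold) and in oocytes (1.90-fold). Il10rb was lower in PFGC (1.82-fold), a call that ended without SSC replicate 3 or PFGC replicate 2, with adjusted p up to 0.0639 over 22 alternative settings.

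Of 4 JAK and STAT genes with a kept probe, Jak2 (1.60-fold and 2.50-fold) and Stat3 (2.36-fold and 2.81-fold) were higher in PFGC and oocytes than in SSC, and Tyk2, a kinase of the type I receptor, was lower (1.89-fold and 2.16-fold). Jak1 was not called, at -0.16 and -0.19 on the log2 scale. Among 13 sensing and induction genes, 5 were higher and 2 lower in PFGC, against 23.7% and 26.8% of all genes. In oocytes, 5 were higher and 1 lower, against 28.1% and 32.4%. The adaptor gene Myd88 (2.44-fold and 2.62-fold) and Cgas, a DNA sensor (2.07-fold and 2.38-fold), were higher in both. Sting1, its partner, was called higher in both but detected on only 0, 2 and 1 arrays of SSC, PFGC and oocytes, and the call in oocytes ended with a background offset of 50 (adjusted p = 0.0617).

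Tlr4, a receptor for bacterial products, was called higher in PFGC, by at least 1.30-fold, and Rela in oocytes (1.5-fold). With the replicate number as a block each was called higher in the other comparison with SSC too, Tlr4 in oocytes (log2 fold change 0.44, adjusted p = 0.0474) and Rela in PFGC (0.28, adjusted p = 0.0272). Mavs, the adaptor of RIG-I, was lower in both (1.43-fold and 1.68-fold), and Irf5 lower in PFGC (1.35-fold). The calls of Mavs and Irf5 in PFGC ended under 9 and 10 of 22 alternatives, with adjusted p up to 0.122 and 0.104. These included leaving out SSC replicate 1, PFGC replicate 2 or PFGC replicate 3 for both genes, and for Mavs also SSC replicate 2, oocyte replicate 1 or oocyte replicate 2.

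Among 10 negative regulators, 5 were higher and 2 lower in both comparisons with SSC. Of all genes, 23.7% were higher and 26.8% lower in PFGC, and 28.1% and 32.4% in oocytes. Tnfaip3, which encodes the NF-kappa-B inhibitor A20, read 5.68, 5.10 and 5.34 in SSC, 8.59, 8.63 and 8.82 in PFGC, and 9.02, 9.09 and 9.12 in oocytes, 9.87-fold and 13.0-fold above SSC. Nlrc5, an activator of MHC class I genes also described as a brake on signalling, was at least 1.96-fold and at least 3.46-fold higher. Irf2 (1.73-fold and 2.81-fold), Ptpn6 (1.80-fold and 1.91-fold) and Socs3 (1.66-fold and 1.96-fold) followed. Ptpn2 (1.77-fold and 1.71-fold) and Nlrx1 (1.86-fold and 2.15-fold) were lower.

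Between PFGC and oocytes, 0 of 4 ligand genes and 0 of 13 sensing and induction genes were called. Lower in PFGC were 1 of 5 receptor genes, 1 of 4 JAK and STAT genes and 2 of 10 negative regulators, against 3.30% of all genes. Higher in PFGC was 1 of the 5 receptor genes, against 6.80%. Ifnar2, Jak2, Irf2 and Nlrc5 were called lower in PFGC (1.55-fold, 1.56-fold, 1.62-fold and 1.76-fold) and Ifngr2 higher (1.67-fold). The calls of Ifnar2, Jak2, Irf2 and Nlrc5 ended without PFGC replicate 2, PFGC replicate 3, oocyte replicate 1 or oocyte replicate 2, and that of Ifngr2 without PFGC replicate 2, oocyte replicate 1 or oocyte replicate 2. With the replicate number as a block, Il10rb was called lower (log2 fold change -0.57, adjusted p = 0.0252) and Tlr4 higher (0.60, adjusted p = 0.0446).

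**Figure D5:**
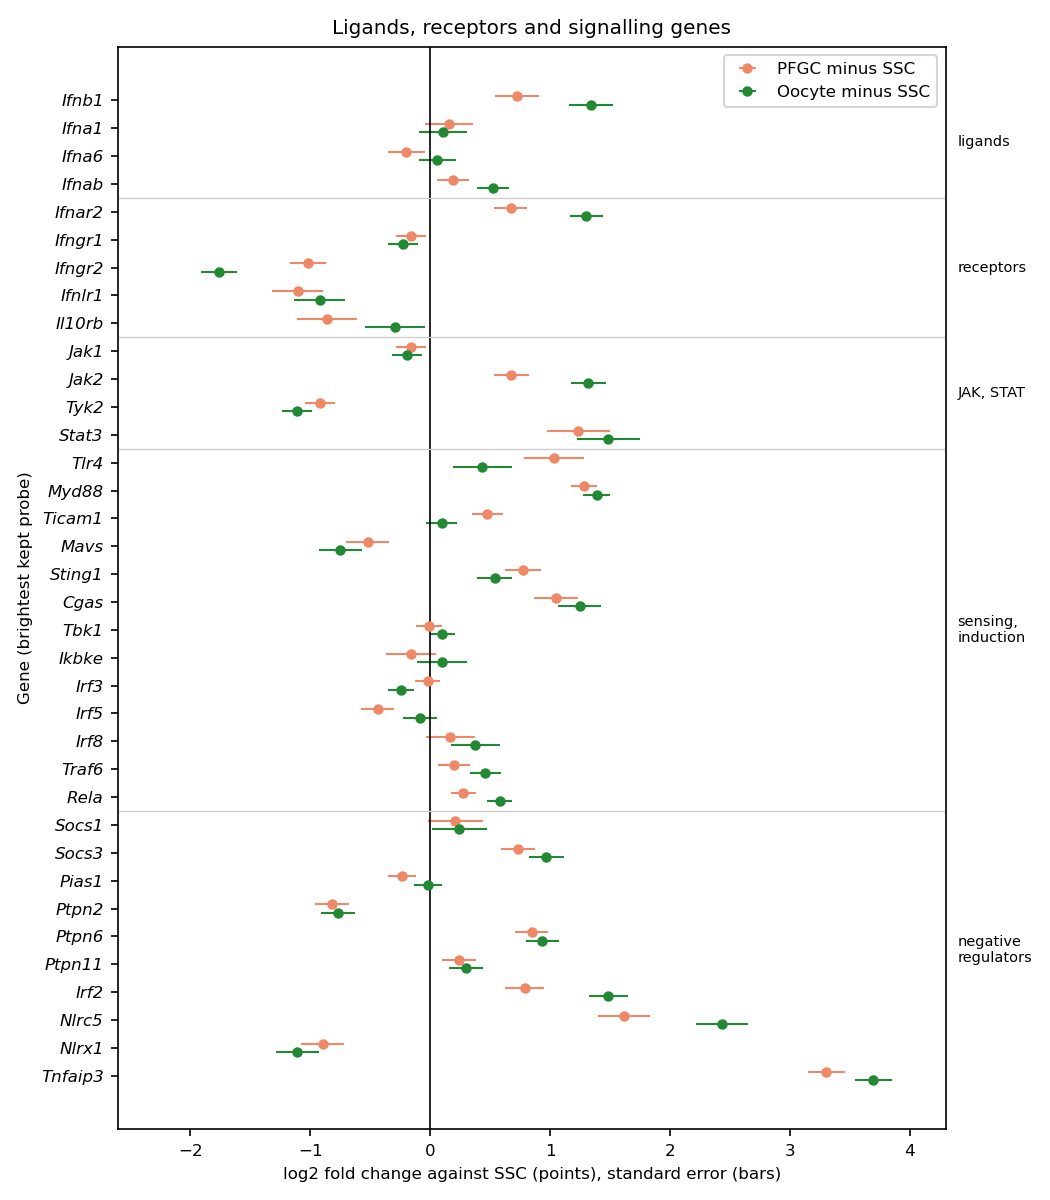
Log2 fold change against SSC (points) with its standard error (bars) for ligand, receptor, JAK and STAT, sensing and regulator genes, in PFGC (orange) and oocytes (green). Ifngr2, Tyk2, Ifnlr1 and Nlrx1 lie to the left of 0 and Ifnar2, Jak2, Myd88 and Nlrc5 to its right, with Tnfaip3 the furthest right at 3.30 and 3.70.

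A further list of 46 interferon-stimulated genes, chosen from general knowledge, had 28 genes with a kept probe. In PFGC against SSC, 17 were higher and 4 lower, against 23.7% and 26.8% of all genes. In oocytes against SSC, 21 were higher and 2 lower (28.1% and 32.4%). In PFGC against oocytes, 10 were lower and 0 higher by limma (3.30% and 6.80%). At an unadjusted p under 0.05 the last counts were 18 lower and 0 higher, and the share of all genes was not taken at that threshold. Psmb8, an immunoproteasome subunit, was 8.11-fold and 15.3-fold above SSC, Cmpk2, the gene next to Rsad2, 7.76-fold and 18.3-fold, Helz2 7.35-fold and 13.3-fold, and the GTPase gene Ifi47 4.71-fold and 8.57-fold.

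Mov10, an RNA helicase, was 2.02-fold and 2.46-fold lower than in SSC, and Znfx1, another helicase, 1.78-fold and 1.53-fold lower. Sp100 and Apobec3 were lower in PFGC (1.73-fold and 1.59-fold), calls that ended without PFGC replicate 3 for both and also without SSC replicate 1 or PFGC replicate 1 for Apobec3. Against oocytes, PFGC were lower for Cmpk2 (2.36-fold), Tor3a (2.33-fold), Psmb8 (1.89-fold) and Parp10 (1.81-fold) among others. The Cmpk2 call ended without PFGC replicate 2 or oocyte replicate 1, those of Psmb8 and Parp10 without either of these or oocyte replicate 2, Psmb8 also without PFGC replicate 1 and Parp10 also without PFGC replicate 3, and that of Tor3a held without any 1 array.

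Cxcl10 and many of its companions are also transcribed in leukocytes and endothelium, and markers of these and other cells were measured on the same arrays. For the counts that follow, 23.7% of all genes were higher and 26.8% lower in PFGC than in SSC. In oocytes against SSC, the shares were 28.1% and 32.4%. Of 15 leukocyte markers with a named probe, 11 had a kept probe, of which 1 was higher and 2 lower in PFGC than in SSC, and 5 higher and 2 lower in oocytes. Their summed linear level lay between 1600.5 and 1723.1 on SSC arrays, between 1739.1 and 2025.8 on PFGC arrays, and between 3365.5 and 3683.1 on oocyte arrays. The pan-leukocyte gene Ptprc and the integrins Itgam and Itgb2 were detected on no array of any group. Adgre1 was detected on no SSC or PFGC array, Cd3e and Nkg7 on no PFGC or oocyte array, and Siglech on no oocyte array.

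Of 11 kept endothelial markers, 10 were higher and 0 lower in PFGC and in oocytes than in SSC by limma at an adjusted p under 0.05, and the counts at an unadjusted p were also 10 and 0. Lower in PFGC than in oocytes were 5 of them, 4 of the 11 leukocyte markers and 4 of the 10 oocyte markers, against 3.30% of all genes. Higher in PFGC than in oocytes were 6 of 9 Sertoli cell markers and 5 of 10 markers of undifferentiated spermatogonia, against 6.80%. So was 1 marker each of leukocytes, fibroblasts and germ cells of both sexes. The summed level of the endothelial markers lay between 1880.4 and 2207.1 on SSC arrays, between 4776.8 and 5238.9 on PFGC arrays, and between 6733 and 7451.5 on oocyte arrays. Kdr was detected on no array, and Tie1 and Icam2 on none of SSC. Sertoli cell markers ran the other way, with 9 of 9 lower than in SSC in both comparisons and summed levels between 89692 and 95618 on SSC arrays, between 21358 and 31550 on PFGC arrays, and between 7790.9 and 8708 on oocyte arrays. The Sertoli cell markers Dhh and Defb36 were detected on no oocyte array. Of 8 kept granulosa cell markers, 5 were higher and 3 lower than in SSC in both comparisons, and Amh was detected on no oocyte array. Their sums ran from 12894 to 15921 with SSC, 19401 to 21143 with PFGC and 20485 to 22539 with oocytes, and Foxl2, Nr5a2, Esr2 and Fst were detected on no SSC array; Amhr2 and Fshr stand on both this list and that of Sertoli cells. Of 7 kept fibroblast markers, 1 was higher and 3 lower in PFGC and 2 higher and 2 lower in oocytes, with sums from 11851 to 15187, 10131 to 11342 and 11564 to 12209, and Postn was detected on no array. The fibroblast marker Thy1 was detected on no oocyte array. Both kept erythrocyte markers were higher in PFGC and in oocytes, with sums from 18536 to 27076, 31228 to 33618 and 32500 to 35293. The part of all these cells in the interferon-stimulated genes was not tested, and in bulk RNA fewer cells of a type and less RNA per cell cannot be told apart.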

How the data were processed

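RNA of 9 samples was hybridised to single-colour Illumina mouse arrays as biotin-labelled cRNA, per the labels' protocols. GenomeStudio is the software named in the submitters' processing notes (version: not given in the sources used here). Each probe has a linear signal intensity that the authors did not normalise and a detection p-value for every array, per the file headers. The deposited table held 0 columns of other samples. A second deposited table, the authors' processed intensity, was tried as an alternative.

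Gene symbols were taken from the array's annotation, and 34807 of 34885 named probes were updated by Entrez identifier from RefSeq (GRCm38.p6). Background was corrected in limma 3.58.1 under R 4.3.3 with the normexp method, which here estimates negative controls through the detection p-values, adding an offset of 16. Quantile normalisation and log2 followed. The fit (lmFit and eBayes, two-sided) covered the 19934 kept probes and the 3 groups. Adjusted p-values are Benjamini-Hochberg over these probes, and calls use 0.05. The brightest kept probe stands for a gene. For PFGC against SSC, log2 fold changes had a median standard error of 0.165, a precision that depends on the spread between arrays and on their number. The fit was tested on simulated data. Where no array of the dimmer group detected a probe, the fold is a bound, from the brighter mean against, per dim array, the higher of the probe's own value and the lowest value of any detected probe.

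The member genes, the other gene lists and the alternatives were chosen with earlier results of these data known. Every member with a kept probe is named, with up to 4 called genes per direction, pathway list and comparison, besides receptor genes and some other genes of short lists. Marker lists are given as counts, summed levels and undetected genes. Deviations of same-numbered arrays from their group means correlated at 0.136 to 0.564 in every pair, so the replicate number was also fitted as a block. Arrays with different numbers correlated at -0.424 to 0.246. Oocyte replicate 2 correlated more with SSC replicate 1 (0.187) than with SSC replicate 2 (0.136). PFGC replicate 2 correlated more with oocyte replicate 1 (0.246) than with oocyte replicate 2 (0.229). The pairing by number comes from the data, is not clear for replicate 2, and is not stated in the labels. Outliers were not tested in groups of 3.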

Additional observations from a re-analysis of the deposited data

How the results depend on the processing

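Over 22 alternatives, calls stayed the same for 36 of 38 genes in PFGC against SSC (exceptions Adar and Irgm1), 37 of 38 in oocytes against SSC (exception Irgm1) and 13 of 38 in PFGC against oocytes. The 1 lower gene of PFGC against SSC, Irgm1, became 0 with 75th percentile scaling, with no normalization and with the mean of kept probes, and 0 to 1 when 1 array was left out. In oocytes against SSC it became 0 with the mean of kept probes. The 1 higher gene of PFGC against oocytes became 0 with 75th percentile scaling, no normalization, the mean of kept probes or only the 2 groups fitted, 2 with array weights or the replicate block, and 0 to 1 when 1 array was left out. The 17 lower genes became 14 to 25 under other alternatives, 20 with the replicate block, and 5 to 19 when 1 array was left out. The block changed no call besides those of Stat2, Oasl1, Dtx3l and Gbp2 among the members and of Rela, Tlr4, Il10rb and Helz2 among the other pathway genes (Helz2 lower in PFGC than in oocytes, adjusted p = 0.0156). With the mean of kept probes Irgm1 reversed to log2 fold changes of 1.25 (PFGC against SSC), 1.67 (oocytes against SSC) and -0.42 (PFGC against oocytes), and Sp100 to 0.27 and 0.64 against SSC; the Irgm1 probes themselves differ in direction. Without normalization the median of all genes moved to -0.14, 0.08 and -0.24 in PFGC against SSC, oocytes against SSC and PFGC against oocytes. The cause of the other changes was not tested. Slide as a block was not run, since the headers give no slide. Genes near background, such as Mx1, Ifnb1 and Parp9, have only bounds where undetected.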
